A study of Homo sapiens with 18 samples.

Results

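The experiment described here is the response of LNCaP cells to R1881, a synthetic androgen that the cells do not break down readily, in the arm of the study that received a non-targeting control siRNA. It was chosen by its labels alone: 3 libraries of cells given control siRNA and R1881 were set against 3 libraries of cells given control siRNA and vehicle, 6 of the 18 libraries of the series. All 15390 of the 60649 genes in the file that passed a filter on low counts were tested. LNCaP is a human prostate cancer line, taken from a lymph node metastasis, that carries a functional though mutated androgen receptor. Every culture was transfected with 1 pool of control siRNAs and was moved to medium free of androgen on the following day. R1881 at 5 nM, or the ethanol it was dissolved in, was added 48 h after transfection, and RNA was taken after 48 h of treatment. Both groups therefore had the transfection and the androgen-deprived medium in common and by the protocol differed in the androgen alone. The labels number all vehicle libraries before all R1881 libraries, so an effect of that order cannot be told apart from the treatment. The response is that of 1 cell line to 1 dose at 1 time. The other 12 libraries, in which the siRNA was directed at UPF1 or RCOR1, entered the fit to share its estimate of the spread and are used for a comparison at the end.

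As background, androgen binds the androgen receptor, which is held in the cytoplasm by HSP90 and its cochaperones, and the bound receptor moves to the nucleus, where it pairs on DNA elements made of AGAACA-like hexamers in the company of FOXA1, HOXB13 and other pioneer factors. In the luminal cells of the prostate it drives the making of secretory proteins such as prostate-specific antigen, the lipids and glycans that go with them, and its own feedback. In cancer lines that need androgen it also bears on growth, and high androgen can slow division as well as sustain it.

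The 6 libraries held 10299607 to 15479748 counts. The first principal component of the 6 libraries held 69.8% of their variance and separated R1881 from vehicle. The second held 16.5% and set 1 library of each group apart, R1881 replicate 1 and vehicle replicate 2. In these, genes with a GC content under 40% lay lower than their means over all 6 libraries, by a median of 0.43 and 0.41 log2 CPM. Levels below are CPM, each gene's count as a share of its library's total, with totals scaled by TMM, the trimmed mean of M values. The luminal identity was checked with its markers. All 13 luminal genes, among them FOXA1, HOXB13, EPCAM and CDH1, passed the filter. Of 26 markers of basal, stromal, endothelial, immune and neuroendocrine cells, 19 did not pass it, and 10 of these, including TP63, COL1A2, CDH5, PTPRC and CHGA, had 0 counts in all 6 libraries. The other 7 summed to 33.1 to 39.7 CPM in the R1881 libraries and to 27.8 to 34.2 CPM in the vehicle libraries. Of these 7, ACTA2, KRT14 and SYP were called higher and COL1A1, COL3A1 and VWF lower with R1881, and their part in the results was not tested.

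The response was broad. Of the 15390 genes, 37.7% were called (edgeR's quasi-likelihood test, Benjamini-Hochberg adjusted p below 0.05), 20.1% higher and 17.6% lower with R1881. Of the genes called higher 1031 changed by less than 0.5 on the log2 scale and 1142 by 0.5 to 1, and of those called lower 626 and 879 did. Changes of at least 2-fold were called higher in 5.96% of genes and lower in 7.84%. In 21.8% of genes all 3 R1881 libraries lay above all 3 vehicle libraries and in 21.1% all lay below. Genes called higher took 40.4 ± 1.02% of all counts with R1881, against 27.7 ± 0.832% with vehicle (SD, n = 3 each). Genes called lower took 6.69 ± 0.277% with R1881, against 12.9 ± 0.291% with vehicle. The genes that rose by at least 2-fold held 12.2 ± 0.135% of counts with R1881 and 4.18 ± 0.0552% with vehicle, while those that fell by as much held 1.02 ± 0.0192% with R1881 and 3.49 ± 0.0932% with vehicle. The 8 genes that gained the most CPM, among them FKBP5, KLK3, TMPRSS2, SORD, ABHD2, FASN and MT-CO1, made up 3.37 ± 0.246% of counts with R1881 and 1.59 ± 0.129% with vehicle. Scaling by library size alone put the median log2 fold change over all genes at -0.22 in place of 0.02, and the share of calls that were higher was then 26.5% in place of 53.3%.

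**Figure D1:**
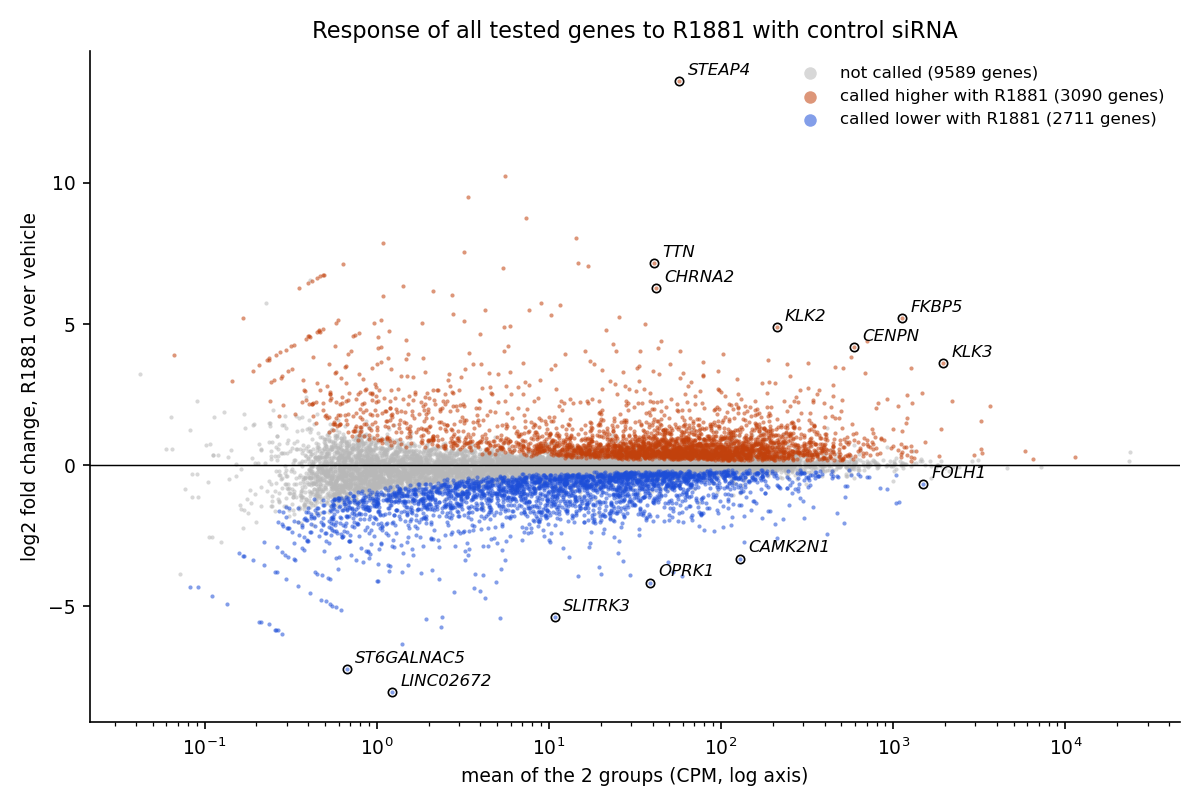
Each point is 1 of the 15390 tested genes, with the mean of the R1881 and vehicle groups in CPM on a logarithmic x axis and the fitted log2 fold change of R1881 over vehicle on the y axis. The 3090 genes called higher lie above 0, the 2711 called lower lie below it, and the values of genes with 0 counts in a group, such as STEAP4 and LINC02672, depend on the prior count of the fit.

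The pioneer and partner factors of the androgen receptor moved in both directions. Values in brackets, and rises and falls given without the word fold, are log2 fold changes of R1881 over vehicle (± SE where given), and members given in brackets only were mostly chosen after their values were seen. FOXA1, which opens chromatin for the receptor, rose slightly (0.24), NFIB (1.29), GRHL2 (0.75) and the membrane-bound factor CREB3L4 (1.86) rose, and GATA2 (-0.82), NFIX (-0.85) and the corepressor TLE3 (-0.76) fell. HOXB13 was not called (-0.24, adjusted p = 0.077). GATA2, a zinc finger factor, had 233, 193 and 183 CPM with R1881 and 337, 387 and 351 CPM with vehicle, with no overlap. The luminal and lineage factors rose for the most part, 6 of 9 tested, with 1 lower. HES6, a Notch-opposing factor of the HES family, had 144, 142 and 139 CPM with R1881, against 12.3, 22.2 and 13.2 CPM with vehicle. Every R1881 library was above every vehicle library by several fold, and HES6 rose by 3.15 ± 0.18. SPDEF, an ETS factor of secretory epithelia, averaged 316 ± 38.5 CPM with R1881 and 53.3 ± 9.90 CPM with vehicle (SD, n = 3). KLF5 (1.97) and SOX9 (1.65) rose as well. Over this list 10 genes rose, 5 fell and 5 were not called, and its median of 0.21 turned to -0.04 when libraries were scaled by size alone.

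Among the secreted and surface proteins of the prostate, 20 of 37 tested genes rose and 2 fell, with a median log2 fold change of 0.53 beside 0.02 over all genes tested. The kallikreins, serine proteases of seminal fluid, lie side by side on chromosome 19, and 5 neighbours, KLK15, KLK3, KLK2, the pseudogene KLKP1 and KLK4, rose together over 85.4 kb by a median of 1.99. KLK2 had 439, 400.0 and 382 CPM with R1881, against 13.6, 14.9 and 12.6 CPM with vehicle. KLK3, which encodes prostate-specific antigen, had 3971, 3592 and 3299.6 CPM with R1881, against 268, 351 and 270.1 CPM with vehicle. KLK4, the next protease in the row, had 209.6, 176 and 174 CPM with R1881, against 47.6, 54.2 and 39.0 CPM with vehicle. In these genes, and in every other called gene whose levels are given library by library in what follows, the R1881 and vehicle libraries did not overlap. The rises were 29.7-fold in KLK2, 12.2-fold in KLK3 and 3.97-fold in KLK4. KLK2 and KLK3 are close copies, and how reads shared between them were assigned is not given in the sources used here.

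The stretches of 250 bases upstream of the annotated start are shown for genes at both ends of the response, since the receptor can bind there. They come from the RefSeq table for GRCh38.p14 and are written 5′ to 3′ on the gene's strand. The motif searched was the hexamer AGAACA, or TGTTCT on the other strand, in capitals where it occurred, and the palindrome of GNACA, 3 bases and TGTNC, of which none of the stretches held a copy. KLK3 lies at chr19:50854665-50854914 on the plus strand, KLK2 at chr19:50873189-50873438 on the plus strand, FKBP5 at chr6:35728584-35728833 on the minus strand and IL1RN, which fell, at chr2:113117721-113117970 on the plus strand.
KLK3: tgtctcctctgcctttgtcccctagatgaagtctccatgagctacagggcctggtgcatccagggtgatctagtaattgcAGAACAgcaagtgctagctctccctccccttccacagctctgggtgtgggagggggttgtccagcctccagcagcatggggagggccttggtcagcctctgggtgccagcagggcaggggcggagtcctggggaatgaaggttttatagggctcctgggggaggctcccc
KLK2: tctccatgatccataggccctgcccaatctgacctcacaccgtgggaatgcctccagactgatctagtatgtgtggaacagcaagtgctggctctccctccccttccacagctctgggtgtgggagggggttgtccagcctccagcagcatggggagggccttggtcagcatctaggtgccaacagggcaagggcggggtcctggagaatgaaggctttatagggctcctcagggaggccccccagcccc
FKBP5: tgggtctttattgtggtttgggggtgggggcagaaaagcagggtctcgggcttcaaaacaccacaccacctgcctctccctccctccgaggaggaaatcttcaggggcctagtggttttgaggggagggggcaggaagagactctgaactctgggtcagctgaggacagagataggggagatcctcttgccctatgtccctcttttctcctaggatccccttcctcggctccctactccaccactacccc
IL1RN: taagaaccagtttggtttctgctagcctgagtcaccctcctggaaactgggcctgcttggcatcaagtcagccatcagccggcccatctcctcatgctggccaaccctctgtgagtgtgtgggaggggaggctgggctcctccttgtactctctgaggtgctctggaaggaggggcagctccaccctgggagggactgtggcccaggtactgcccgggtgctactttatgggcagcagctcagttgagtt
KLK3 held 1 such hexamer, whose first base lies 170 bases upstream of the start. The upstream stretches of KLK3 and KLK2 could be aligned over 196 positions, of which 178 were identical (90.8%), with an unbroken stretch of 80 bases in common. In this alignment KLK2 differs from the KLK3 hexamer by A1G, counted from 1 at the 5′ end of the hexamer. FKBP5, IL1RN, DDC and LRRN1 held no copy, which says only that these letters are not in these windows. The hexamer on either strand was in 8.59% of the 652 promoters of genes called at least 2-fold higher, in 9.57% of the 794 of genes called at least 2-fold lower, in 7.43% of the 10710 promoters of tested genes and in 12.4% of all 35116 in the table. The palindrome was in 2, 2, 13 and 115 of these promoters.

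Some genes with 0 counts in every vehicle library were expressed with R1881. STEAP4, a metalloreductase of the cell surface, had 1023, 1793 and 1543 counts in the R1881 libraries and 0 in each vehicle library, at least 1521-fold higher, taking 3 counts over the whole vehicle group as the floor. ORM1, an acute phase glycoprotein, had 169, 135 and 125 counts with R1881 and 0 in each vehicle library, at least 150-fold higher, and its close copy ORM2 had 80, 90 and 87 counts with R1881 and 0 in each vehicle library, at least 89.7-fold higher. Reads of ORM1 and ORM2 may have been split between them. In all, 8 genes had 0 counts in the 3 vehicle libraries and at least 10 in each R1881 library, the others being the keratin KRT6A, the long noncoding RNA PCAT18, the pseudogene UGT2B24P and the unnamed transcripts RP1-288H2.2 and RP11-244H18.1. Only 2 genes showed the reverse. ST6GALNAC5, a sialyltransferase of gangliosides, had 0 counts with R1881 and 31, 14 and 11 with vehicle, at least 17.8-fold lower. The noncoding LINC02672 had 0 counts with R1881 and 30, 25 and 40 with vehicle, at least 30.3-fold lower.

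Among genes of at least 50 CPM in 1 group, the steepest rises after STEAP4 were in TTN, CHRNA2, FKBP5, ZNF812P and KLK2, followed by CSGALNACT1, NDRG1, CENPN, IQGAP2, ST6GALNAC1, GNMT, MICAL1, SLC45A3 and MAF. CHRNA2, a nicotinic acetylcholine receptor subunit, had 93.9, 75.6 and 77.8 CPM with R1881, against 0.795, 1.46 and 0.917 CPM with vehicle, a 76.9-fold rise. NDRG1, a cytoplasmic protein linked to differentiation and stress, had 1379, 1294 and 1348 CPM with R1881, against 55.2, 69.0 and 64.6 CPM with vehicle. CHRNA2 was near-silent without androgen while NDRG1 was well expressed, and both were uniform within each group. TTN, the giant muscle protein gene, was less uniform, with 52.1, 108 and 84.7 CPM with R1881, against 1.06, 0.208 and 0.367 CPM with vehicle, and IQGAP2, a scaffold of the actin cytoskeleton, had 48.8, 96.9 and 97.3 CPM with R1881, against 6.63, 2.57 and 4.31 CPM with vehicle. In both the lowest R1881 value was that of replicate 1, one of the libraries low in AT-rich genes, though it still lay far above the highest vehicle value. The most regular rise of all genes, by the size of F, was in CENPN (ENSG00000166451.14, chromosome 16, 81006498 to 81033114 of GRCh38), which encodes a protein that binds the centromeric nucleosome. It had 1135, 1109 and 1132 CPM with R1881, against 62.6, 63.7 and 59.1 CPM with vehicle, an 18.2-fold rise with a log2 fold change of 4.19 ± 0.07 (adjusted p = 8.9e-16). Its neighbours CDYL2 (2.24), ARLNC1 (4.77), CMC2 (1.28) and ATMIN (1.13) on chromosome 16 also rose. GNMT, which uses up S-adenosylmethionine, rose 16.4-fold, the flavoprotein MICAL1 15.2-fold, the transporter SLC45A3, known as prostein, 14.1-fold, and the leucine zipper factor MAF 13.2-fold.

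The steepest falls of genes with at least 50 CPM were in OPRK1, ACKR3, UGT2B17, IL1RN, DDC, CAMK2N1, MMP16, LRRN1, FRAS1, GRB10, GASK1B, MYRIP, STXBP5L and the histone genes H2BC17 and H3C2. OPRK1, the kappa opioid receptor, had 4.18, 3.95 and 4.25 CPM with R1881, against 75.7, 69.0 and 76.3 CPM with vehicle. CAMK2N1, an inhibitor of the calcium-dependent kinase CaMKII, had 22.0, 24.3 and 24.8 CPM with R1881, against 223, 231 and 251 CPM with vehicle. DDC, the aromatic amino acid decarboxylase that makes dopamine and serotonin, had 6.78, 8.77 and 9.49 CPM with R1881, against 90.0, 87.5 and 90.9 CPM with vehicle. In each of these the 3 libraries of a group lay close together and the groups were about an order of magnitude apart, with falls of 17.8-fold, 9.90-fold and 10.7-fold. GRB10, an adaptor that binds and restrains insulin and IGF1 receptors, fell 5.37-fold to 129.7 ± 12.9 CPM with R1881, against 697 ± 15.4 CPM with vehicle (SD, n = 3). IL1RN, the antagonist of the interleukin 1 receptor, had 9.08, 6.87 and 5.51 CPM with R1881 and 94.2, 99.9 and 102 CPM with vehicle, and its low neighbours on chromosome 2, IL1B, IL36G, IL36RN and IL1F10, fell with it. The MMP16 protease had 20.5, 43.4 and 43.3 CPM with R1881 and 325, 155 and 223 CPM with vehicle, a fall of 6.57-fold. In MMP16 the lowest library of each group was the one low in AT-rich genes. By gain and loss of CPM the largest losses included those of FOLH1, ST3GAL1, NFIX, FN1, AIDA, SELENBP1 and GRB10. FOLH1, the surface peptidase known as prostate-specific membrane antigen, had 979, 1243 and 1255 CPM with R1881 and 1918, 1649.7 and 1928 CPM with vehicle, and FN1, the fibronectin gene, had 668, 638 and 557 CPM with R1881 and 1469, 1564 and 1566 CPM with vehicle. Both fell without overlap of the groups, with log2 fold changes of -0.66 ± 0.10 and -1.30 ± 0.09.

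**Figure D2:**
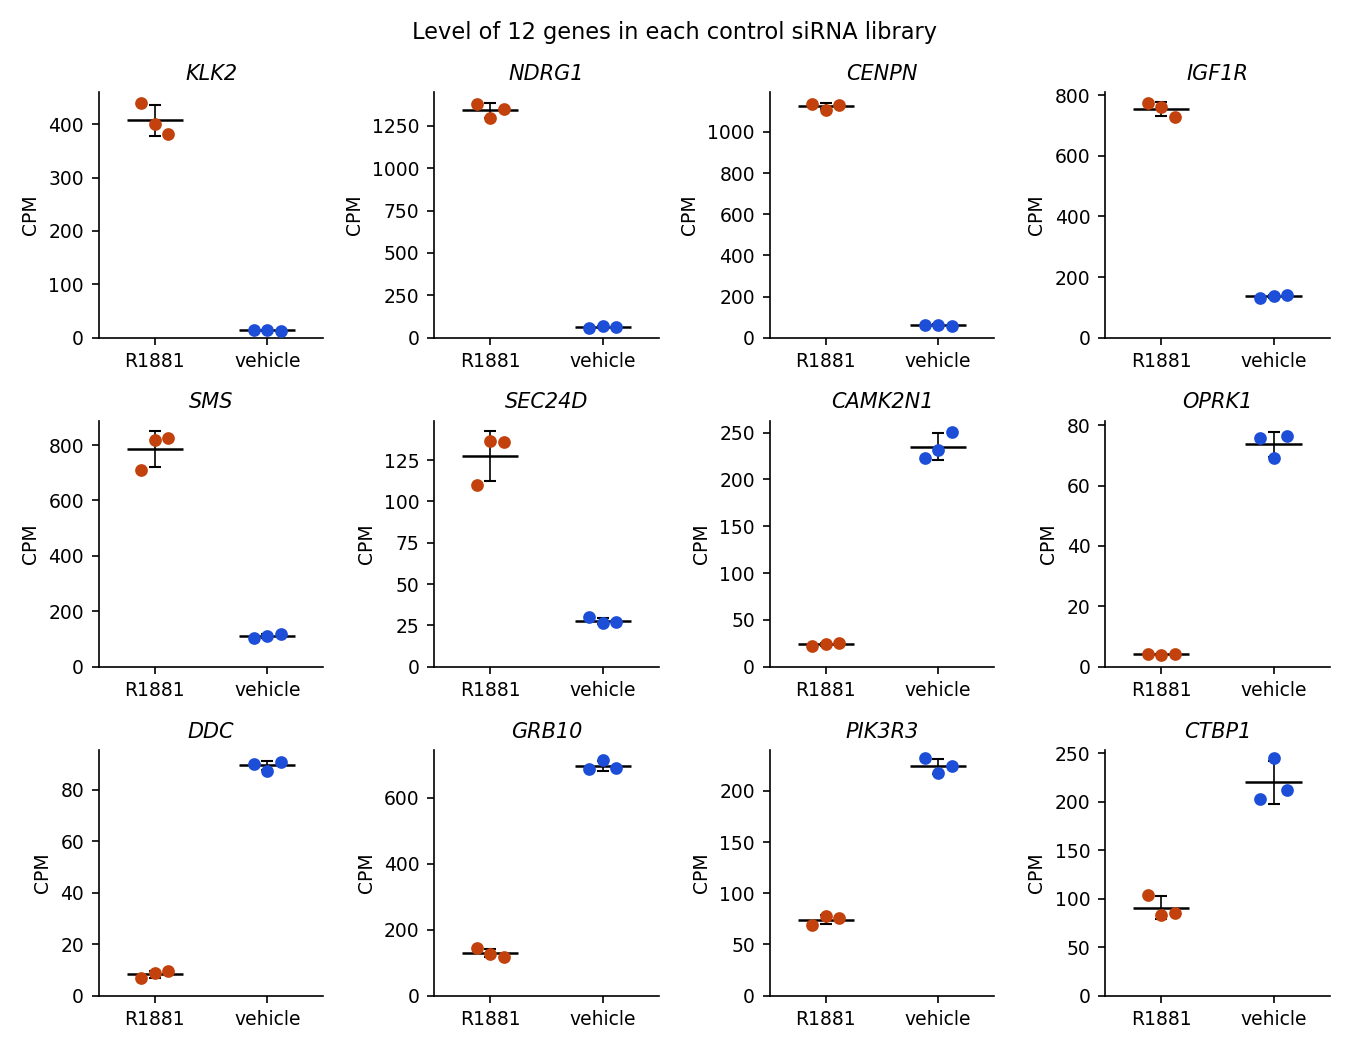
Points are the CPM of each library, with the 3 R1881 libraries left of the 3 vehicle libraries on a linear axis from 0, and bars give the mean and SD (n = 3). The groups do not overlap in any of the 12 genes, and CENPN at 1126 ± 14.7 CPM with R1881 against 61.8 ± 2.37 CPM with vehicle has the largest F of the 12.

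Enzymes that make and inactivate androgens changed in 16 of 25 tested genes, 11 higher and 5 lower, with a median of 0.04 that turned to -0.20 with scaling by library size alone. All 5 tested members of the glucuronidation step, which makes androgens soluble for export, changed, but in opposite directions. UGT2B17 had 3.89, 3.29 and 3.98 CPM with R1881, against 52.8, 53.4 and 59.8 CPM with vehicle. UGT2B15 had 0.577, 0.658 and 0.271 CPM with R1881, against 10.5, 7.63 and 9.72 CPM with vehicle. These enzymes, known for inactivating dihydrotestosterone in the prostate, fell without overlap of the groups, with log2 fold changes of -3.89 ± 0.14 and -4.15 ± 0.39. UGT2B11 rose, with 10.6, 14.5 and 13.8 CPM with R1881 and 2.05, 1.18 and 1.74 CPM with vehicle. UGT2B28 had 404 counts over the R1881 libraries and 3 over the vehicle libraries, a ratio of 141 (exact 95% counting interval 47.9 to 686, which covers counting error only, as in all such ratios). Per kilobase of exons, UGT2B17 stood at 1.79 CPM with R1881 and 26.6 CPM with vehicle, UGT2B28 at 5.85 CPM with R1881 and 0.0361 CPM with vehicle, and UGT2B11 at 5.54 CPM with R1881 and 0.709 CPM with vehicle. Of these 3, UGT2B17 was first with vehicle, and UGT2B11 and UGT2B28 stood above it with R1881. These genes are near copies of one another, and the assignment of reads among them is uncertain. UGDH, which makes the UDP-glucuronic acid they use, rose by 1.18. SRD5A1, a steroid 5-alpha-reductase that makes dihydrotestosterone, rose by 0.60 ± 0.09, with 68.5, 81.5 and 76.9 CPM with R1881 and 52.1, 46.7 and 51.2 CPM with vehicle, and SRD5A3 fell by a little (-0.29). AKR1C3, which reduces androstenedione to testosterone, was low and fell to 0.433, 0.292 and 0.632 CPM with R1881, against 1.13, 1.46 and 1.47 CPM with vehicle. CYP11A1, the side-chain cleavage enzyme of steroid synthesis, had 25 counts with R1881 and 1 with vehicle, a ratio of 26.2 whose counting interval ran from 4.28 to 1075.

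Other nuclear receptors changed in 13 of 30 tested genes, 6 higher and 7 lower, a share of 43.3% beside 37.7% of all genes. With library size alone 3 were higher and 12 lower, and with the 6 libraries alone 3 were higher and 3 lower. NR4A1, an immediate early orphan receptor, had 50.5, 46.0 and 49.2 CPM with R1881, against 7.16, 7.84 and 5.87 CPM with vehicle, and rose 6.94-fold. The thyroid hormone receptors went apart, with THRB higher (0.96) and THRA lower (-1.05), and RARG (-1.18) and RARA (-0.37), which bind retinoic acid, were lower. Of the other steroid receptors, PGR, the progesterone receptor, was scarce in either condition and fell to 0.144, 0.146 and 0.271 CPM with R1881, against 1.86, 1.25 and 1.56 CPM with vehicle. NR3C1, the glucocorticoid receptor, averaged 0.823 ± 0.463 CPM with R1881 and 1.75 ± 0.384 CPM with vehicle (SD, n = 3). Its call was lost without R1881 replicate 1 or vehicle replicate 1, among 5 settings in which the log2 fold change was -1.18 to -0.72. Genes that glucocorticoids induce in many tissues and that share receptor elements with androgens rose in 17 of 25 cases and fell in 2, with a median of 0.83. HPGD, which degrades prostaglandins, had 21.5, 38.2 and 41.4 CPM with R1881, against 0.464, 0.139 and 0.0917 CPM with vehicle. ERRFI1, a feedback inhibitor of the EGF receptor (2.95), ACSL3, which activates long-chain fatty acids (3.25), FKBP5 and PER1, a clock repressor (1.38), were among those that rose. SESN1, a stress-induced sestrin, fell to 47.2 ± 5.89 CPM with R1881, against 143 ± 11.2 CPM with vehicle (SD, n = 3). FKBP5, a cochaperone of steroid receptors, had 1808, 2353 and 2425 CPM with R1881, against 63.1, 56.0 and 59.0 CPM with vehicle.

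Among the receptor's chaperones 9 of 23 rose and none fell, 39.1% called, close to the 37.7% of all genes. The median of 0.16 was -0.08 with scaling by library size alone, where 2 rose and 3 fell. By edgeR 1 was lower at an unadjusted p below 0.05, and DESeq2 called 0 lower. Aside from FKBP5, the rises were small, such as BAG3 (0.55), whose call was lost with library size alone (0.31, adjusted p = 0.085). Of 37 tested coregulators 10 were higher and 6 lower, 43.2% called against 37.7% of all genes. The balance turned to 3 higher and 13 lower with library size alone, and with the 6 libraries alone 5 were higher and 5 lower. Among those called, 1 changed by at least 2-fold. This was CTBP1, a corepressor that binds NADH. CTBP1 had 104, 83.1 and 84.7 CPM with R1881, against 203, 245 and 212 CPM with vehicle, and fell by 1.28 ± 0.11. Its antisense transcript CTBP1-AS, in the list of noncoding RNAs and singled out after its values were seen, moved the other way, with 61.3, 66.4 and 58.4 CPM with R1881, against 10.3, 8.95 and 9.63 CPM with vehicle. Neither gene's groups overlapped, and since the strand setting of the counting is not given, reads of the 2 genes cannot be told apart where they overlap. The coactivators NCOA7 (-0.93) and NCOA3 (-0.52) were lower, while the demethylase KDM4B (0.83), the SUMO ligase PIAS1 (0.91) and NCOA4, the ferritin receptor (0.52), were higher.

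Of 47 tested genes for coats and vesicle transport, 41 rose, none fell and 6 were not called, with a median of 0.69. No member was lower at an unadjusted p below 0.05 by edgeR, and DESeq2 called 0 lower. With both libraries low in AT-rich genes left out 40 rose and none fell, and with scaling by library size alone 28 rose and none fell. The COPII coat, which carries proteins out of the endoplasmic reticulum, rose in 13 of 15 genes. SEC24D, a subunit that selects cargo, had 110.2, 137 and 136 CPM with R1881, against 29.8, 26.5 and 26.8 CPM with vehicle, and SEC24B rose by 1.25 ± 0.15 (SE). The COPI coat, which returns proteins from the Golgi, rose in 11 of 12, by up to 1.06 in COPG1, and cargo receptors and tethers in 17 of 20. LMAN1, a lectin that carries glycoproteins, rose by 1.34 ± 0.37, but its values of 227, 434 and 464 CPM with R1881 and 189, 96.7 and 158 CPM with vehicle were uneven, the highest vehicle library lying close below the lowest R1881 library. Of 34 tested enzymes that charge and place sugars, 18 rose and 4 fell, with a median of 0.52. With library size alone 15 rose and 7 fell, with a median of 0.28. On the route to UDP-GlcNAc, the sugar donor of glycans, 5 of 7 rose, UAP1 at the last step to 506, 659 and 668 CPM with R1881, against 114, 92.7 and 116 CPM with vehicle, and PGM3 by 2.05 ± 0.24. On the route to sialic acid 7 of 10 rose, among them NANS (1.59), CMAS (1.05) and ST6GALNAC1, which caps O-glycans and had 68.1, 61.4 and 62.0 CPM with R1881, against 3.38, 4.92 and 3.12 CPM with vehicle. GNE, the first enzyme of this route, had 20 counts with R1881 and 2 with vehicle, a ratio of 10.5 with a counting interval of 2.54 to 92.4, and its call was lost when R1881 replicate 2 or 3 or vehicle replicate 2 or 3 was left out (log2 fold change 2.51 to 3.15). ST3GAL1, which caps the T antigen, fell to 669, 596 and 568 CPM with R1881, against 1034, 1108 and 1032 CPM with vehicle. The transferases that start O-glycans divided, with GALNT7 (2.18) and GALNT12 (2.24) higher and GALNT3 (-1.51) and GALNT10 (-0.82) lower, and FUT8, which adds core fucose, fell (-1.05).

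Polyamines, which prostate secretes in large amounts, are made from ornithine by ODC1 and from S-adenosylmethionine by AMD1. Of 15 tested genes 9 rose and 1 fell, with a median of 0.67. With library size alone 7 rose and 3 fell, with a median of 0.43. SMS, spermine synthase, had 712, 819.9 and 825 CPM with R1881, against 104, 109 and 117 CPM with vehicle. ODC1, ornithine decarboxylase, had 1848, 1630.5 and 1702 CPM with R1881, against 368, 439.6 and 393 CPM with vehicle. SAT1, the acetyltransferase that starts their breakdown, had 839, 820.4 and 849 CPM with R1881 and 157, 171 and 184 CPM with vehicle, a rise of 4.90-fold. AMD1 (1.21) and SMOX (0.84) were also higher, and AZIN2, an antizyme inhibitor, was lower (-0.96). The call of AZIN2 was lost in 6 settings, among them without R1881 replicate 1 or 3 or vehicle replicate 1 or 2, with values of up to -0.67.

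Of 41 genes of the citrate cycle and of mitochondrial fuel entry, 11 rose, 3 fell and 27 were not called, 34.1% called beside 37.7% of all genes. The median of 0.08 turned to -0.16 with scaling by library size alone, where 11 rose and 9 fell. Of the 23 genes listed under the citrate cycle, which take in cytosolic enzymes such as IDH1, 3 rose and 1 fell. Those that rose were OGDH, IDH1 and ME1. Of the genes of fuel entry 8 of 18 rose and 2 fell. None of the 3 lower calls was made with the 6 libraries alone. ACO1, of the citrate cycle list, lost its call without R1881 replicate 2 or 3 or any 1 vehicle library, among 8 settings with values of -0.215 to -0.14. PDK2, a kinase that inhibits pyruvate dehydrogenase, lost it without R1881 replicate 2 or 3 or vehicle replicate 2, among 4 settings with values of -0.57 to -0.38. PDK3, of the same family, lost it without R1881 replicate 1 or vehicle replicate 1 or 3, among 4 settings with values of -0.74 to -0.50. MPC2, a subunit of the mitochondrial pyruvate carrier, had 749, 769.7 and 838 CPM with R1881, against 195, 214 and 218 CPM with vehicle. GLUD1, glutamate dehydrogenase (1.50), and IDH1, the cytosolic isocitrate dehydrogenase (1.14), rose. In glycolysis 10 of 26 rose and 3 fell, 50% called beside 37.7% of all genes. The median of 0.19 was -0.05 with library size alone, where 6 rose and 6 fell. In uptake and phosphorylation 7 of 13 rose. In lower glycolysis 2 of 9 rose, ALDOA and ENO1, both with overlap of the groups, while ENO2 and PKM (-0.34) fell. The groups overlapped in PKM too, and its call was lost in 4 settings with values of -0.38 to -0.22. SLC2A3, a glucose transporter, had 563 counts with R1881 and 1 with vehicle, a ratio of 589 with a counting interval of 105 to 23319. PFKFB2, which makes the activator of phosphofructokinase, rose by 1.95 ± 0.08 and HK2 by 1.46 ± 0.10, while ENO2 (-1.12 ± 0.13) and PFKM (-0.48 ± 0.07) fell. In lipid handling and energy sensing 16 of 41 rose and 8 fell, 58.5% called beside 37.7% of all genes. The median was 0.18, or -0.07 with library size alone. ACSL3 had 868, 1389 and 1461 CPM with R1881, against 149, 103 and 137 CPM with vehicle. AMACR, a racemase of branched fatty acids used as a tumour marker, rose by 1.97 ± 0.10.

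Among 35 carriers of amino acids and zinc 13 rose and 7 fell, 57.1% called beside 37.7% of all genes, with a median of 0.36. With library size alone 10 rose and 9 fell, with a median of 0.12. SLC38A4, a carrier of small neutral amino acids, had 246 counts with R1881 and 1 with vehicle, a ratio of 258 with a counting interval of 45.8 to 10212. SLC43A1, a carrier of leucine, rose to 115, 99.8 and 101 CPM with R1881, against 17.5, 21.4 and 16.7 CPM with vehicle. Of the zinc importers SLC39A10 rose (2.08) and SLC39A8 fell (-1.17), and SLC30A10, of the zinc exporter family, fell (-2.37). Among 43 genes of sodium, potassium and calcium transport 13 rose and 7 fell, 46.5% called beside 37.7% of all genes. The median of 0.19 was -0.04 with library size alone, where 9 rose and 12 fell. TRPM8, the cold-sensing channel of the prostate, had 54.4, 56.1 and 52.2 CPM with R1881, against 10.7, 11.2 and 13.9 CPM with vehicle. KCNMA1, a calcium-gated potassium channel, rose by 2.71 ± 0.08, and ITPR1, a calcium release channel, fell by 1.35 ± 0.09.

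**Figure D3:**
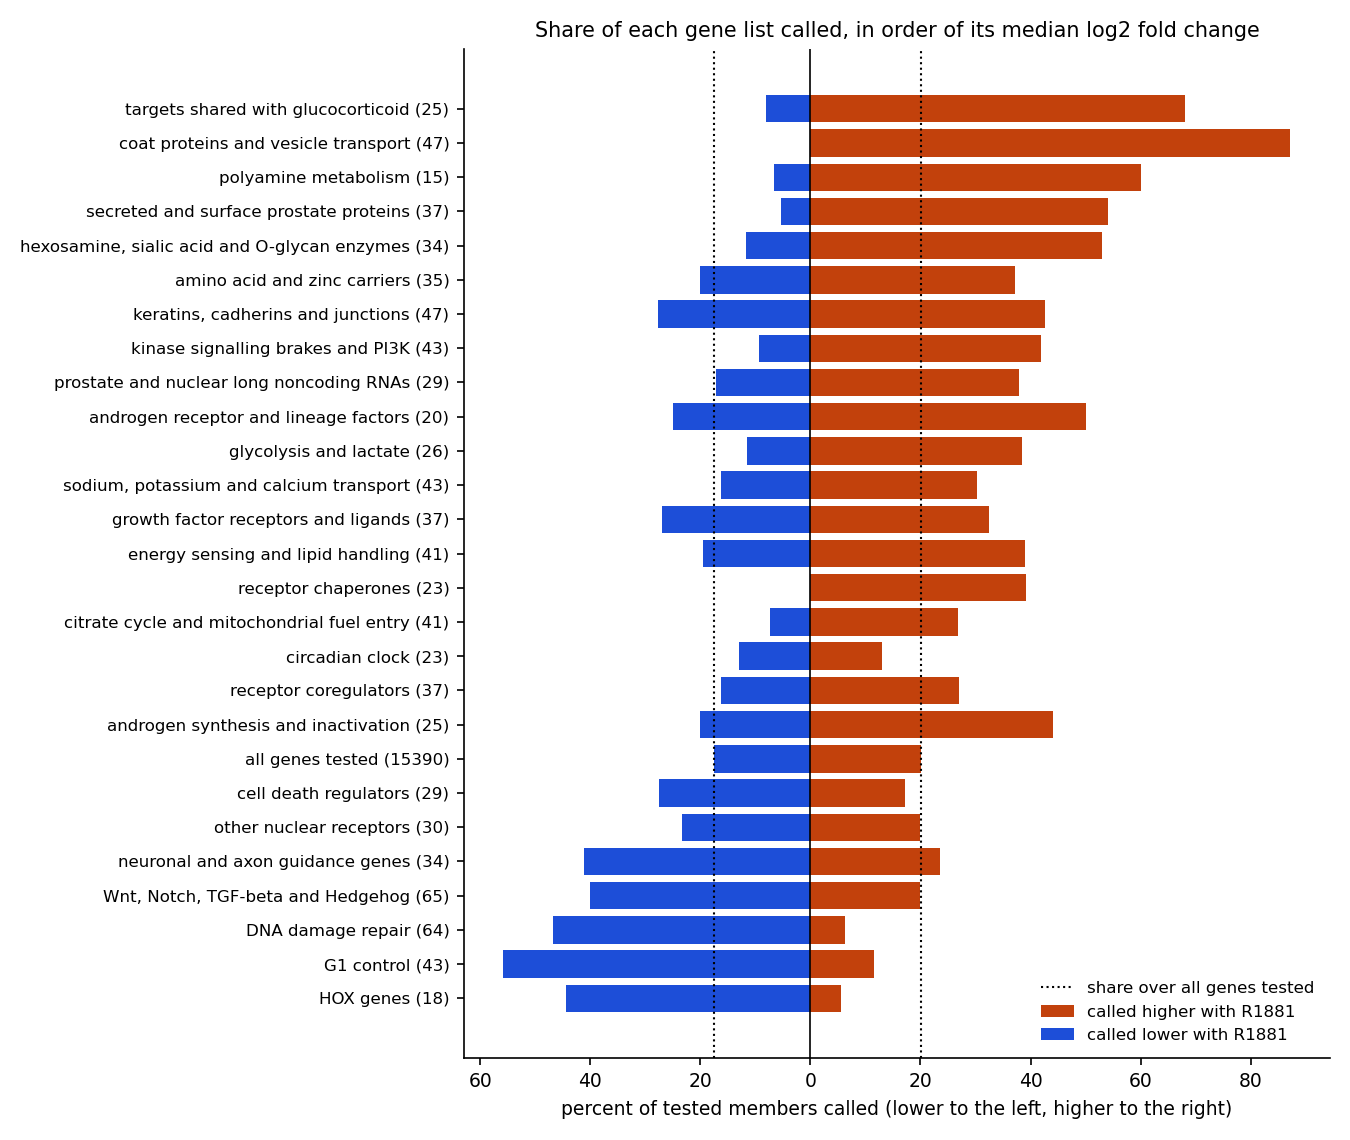
Bars give the percent of the tested members of each list that were called higher (right) and lower (left) with R1881, in order of the median log2 fold change, with the number tested in brackets. Dotted lines mark the shares over all 15390 genes, 20.1% higher and 17.6% lower, which the coat proteins pass most on the right and the G1 genes most on the left.

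Receptors for growth factors and their ligands rose in 12 and fell in 10 of 37 tested genes, with a median of 0.19 that was -0.05 with library size alone, where 8 rose and 13 fell. IGF1R, the IGF1 receptor, had 773, 761 and 726 CPM with R1881, against 132, 136 and 139.8 CPM with vehicle, a rise of 5.54-fold. IGF1 itself, at a low level, had 5.19, 8.70 and 9.85 CPM with R1881 and 2.19, 0.971 and 0.733 CPM with vehicle. GRB10, an adaptor of the same receptor, fell as given above. PTPRM, a receptor phosphatase of the same list, rose by 2.42 ± 0.07, and EGFR by 1.32, whereas MET, the HGF receptor, fell to 0.288, 0.219 and 0.813 CPM with R1881, against 1.66, 1.32 and 2.48 CPM with vehicle. TGFA (-0.93) and FGFR1 (-0.91) were lower. Brakes and outputs of the MAPK pathway rose in 11 of 23 genes and fell in none (1 lower at an unadjusted p below 0.05 by edgeR, 0 called lower by DESeq2), and genes of PI3K and AKT rose in 7 and fell in 4 of 20. Over all genes tested 20.1% rose and 17.6% fell. DUSP5, a nuclear ERK phosphatase, had 11.1, 9.21 and 7.23 CPM with R1881, against 0.861, 0.902 and 1.19 CPM with vehicle. RASD1, a Ras-like protein induced by glucocorticoid, rose by 2.36 ± 0.18. INPP4B, a phosphatase that ends PI3K signals, had 29.5, 57.5 and 60.3 CPM with R1881, against 6.16, 3.19 and 5.50 CPM with vehicle. PIK3R3, a regulatory subunit of PI3K, fell to 69.1, 77.6 and 75.5 CPM with R1881, against 232, 217 and 224 CPM with vehicle, and DEPTOR, an inhibitor of mTOR, fell by 1.33 ± 0.15, while MTOR itself rose by 1.48.

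The genes of G1 control fell in 24 of 43 cases and rose in 5, with a median of -0.41. The E2F and pocket protein group fell in 11 of 17 genes and rose in none (0 higher at an unadjusted p below 0.05 by edgeR, 0 called higher by DESeq2). E2F8, an inhibitory E2F of late S phase, had 2.45, 2.41 and 2.98 CPM with R1881, against 13.6, 11.3 and 11.4 CPM with vehicle. E2F7 (-1.90 ± 0.30), E2F1 (-1.14), E2F2 (-1.53) and MYBL2, a driver of late cycle genes (-1.63), fell as well. RB1, E2F4 (-0.05), E2F5 (0.10) and E2F6 (0.03) were not called. Cyclins and kinases fell in 7 of 11, among them CCNE2, which starts S phase, with 3.39, 8.70 and 7.68 CPM with R1881, against 25.2, 16.0 and 25.3 CPM with vehicle. CCND1, the main D cyclin, fell to 399, 404 and 426 CPM with R1881, against 521, 529 and 539 CPM with vehicle. CDK6 went the other way, with 9.01, 17.8 and 13.1 CPM with R1881 and 5.43, 2.71 and 4.40 CPM with vehicle, a rise of 1.67 ± 0.35. Of the 6 tested inhibitors of cyclin-dependent kinases 1 rose, CDKN2B (1.71 ± 0.17), which acts on CDK4 and CDK6. Its relatives CDKN2A (-0.81), CDKN2C (-1.39) and CDKN2D (-0.49) fell, and CDKN1A (-0.32) and CDKN1B (-0.19) were not called. In the MYC family MYC fell (-0.65 ± 0.11) and MYCL rose (1.44 ± 0.12). MYC had 100.5, 91.5 and 92.8 CPM with R1881 and 141, 167 and 139 CPM with vehicle.

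DNA repair genes fell in 30 of 64 cases and rose in 4, with a median of -0.37. Homologous recombination fell in 14 of 22 genes and rose in none, and the Fanconi pathway, which unhooks crosslinks, fell in 8 of 11 and rose in none. In both pathways 0 genes were higher at an unadjusted p below 0.05 by edgeR and DESeq2 called 0 higher. The nuclease EXO1 (-1.82 ± 0.28), the helicase-like RAD54L (-1.77 ± 0.21), FANCA (-1.51) and BRCA1 (-1.31) fell. End joining fell in 2 of 10 genes, POLQ (-1.70) and PARP1 (-0.24), and rose in 2, the Ku subunits XRCC5 (0.27) and XRCC6 (0.18). The call of XRCC5 was lost without R1881 replicate 3, among 4 settings with values of 0.02 to 0.24. Mismatch and excision repair fell in 6 of 21 and rose in 2, DDB1 (0.58) and LIG3 (0.30), of which the call of LIG3 was lost in 3 settings with values of 0.05 to 0.27. In end joining and in mismatch and excision repair the share called was close to the 37.7% over all genes. Differences between the pathways were not tested. With both libraries low in AT-rich genes left out 27 repair genes fell and 3 rose, and 22 G1 genes fell and 4 rose. CENPN, described above, rose while these genes of dividing cells fell.

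**Figure D4:**
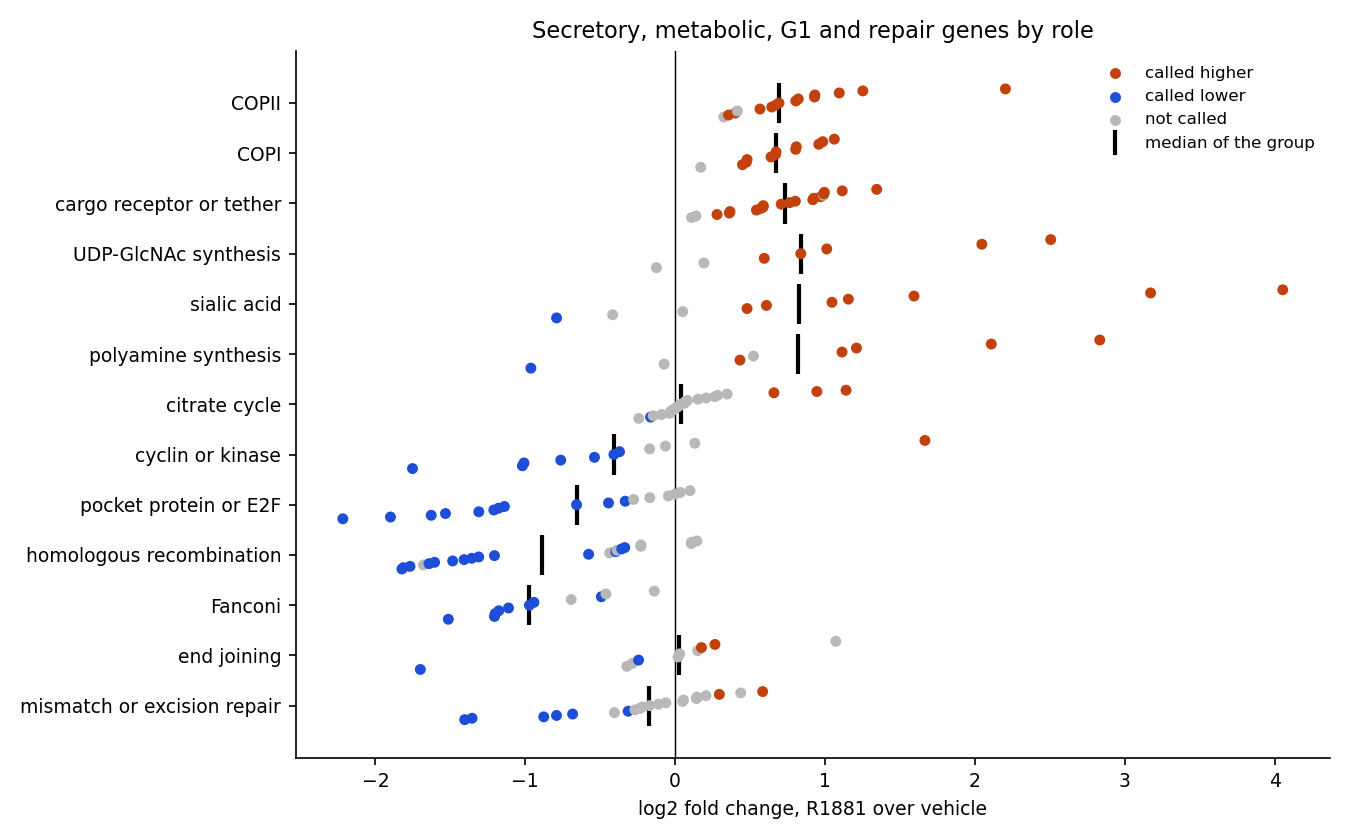
Each point is 1 tested gene, placed by its log2 fold change of R1881 over vehicle and coloured by its call, and the black bar is the median of the role. Coat and cargo genes lie to the right of 0 and the citrate cycle lies around it, while E2F, homologous recombination and Fanconi genes lie mostly to the left, with medians of -0.66, -0.89 and -0.97.

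Of 29 tested regulators of cell death 5 rose and 8 fell, 44.8% called beside 37.7% of all genes. With library size alone 3 rose and 10 fell. On the survival side BIRC3 (4.59-fold) and BCL2L1 (2.15-fold) rose and BCL2 (-1.15) and BIRC5 (-1.48), which is made in dividing cells, fell. BCL2L1, which encodes BCL-XL, had 391, 331 and 327 CPM with R1881, against 149, 174 and 164 CPM with vehicle. Of the killers BMF, a BH3-only protein released from the cytoskeleton, fell to 10.4, 10.1 and 8.49 CPM with R1881, against 36.6, 37.5 and 37.9 CPM with vehicle, and BID (-1.20), BBC3 (-0.75) and BAX (-0.54) fell as well. TNFRSF10B, the TRAIL receptor DR5, rose to 512, 479.7 and 477 CPM with R1881, against 154, 176 and 153 CPM with vehicle.

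Developmental signalling fell more often than it rose, in 26 against 13 of 65 tested genes with a median of -0.15. Over all genes tested 17.6% fell and 20.1% rose. The median was -0.07 with both libraries low in AT-rich genes left out and -0.40 with library size alone. In the Wnt pathway 10 of 24 fell and 3 rose. LEF1, a nuclear partner of beta-catenin, fell to 2.16, 2.34 and 1.99 CPM with R1881, against 7.69, 7.49 and 7.24 CPM with vehicle, and the feedback inhibitors RNF43 (-1.45) and NKD1 (-1.10) fell with it. The receptor FZD5 rose to 229, 272 and 282 CPM with R1881, against 54.5, 51.2 and 55.5 CPM with vehicle. All 4 tested Hedgehog genes fell, GLI3 among them (-1.51). In the Notch group HES1 rose (2.01 ± 0.28) and DTX4 fell (-2.54 ± 0.25), and in the TGF-beta group TGFBR2 (2.03), BMPR1A (1.98) and BMPR1B (1.80) rose and LTBP1 fell (-2.00 ± 0.31). Of the HOX genes 21 of 39 were too low to test, and of the other 18, 8 fell and 1 rose, with a median of -0.86. HOXA10 fell by 1.32 ± 0.11, and HOXA9 had 1 count over the R1881 libraries and 43 over the vehicle libraries, a ratio of vehicle to R1881 of 41.1 with a counting interval of 6.99 to 1660. HOXB9 rose slightly (0.66 ± 0.15), a call lost with both libraries low in AT-rich genes left out, among 3 settings with values of 0.38 to 0.61. Of the circadian clock 3 of 23 genes rose, PER1 (1.38), BHLHE40 (1.94) and CRY1 (0.59), with 3 lower, HLF (-1.05), DBP (-1.02) and NR1D1 (-0.72). These are 26.1% of the list, below the 37.7% called over all genes. With library size alone 3 rose and 8 fell, and the median of 0.08 turned to -0.17. The groups overlapped in NR1D1, whose call was lost without R1881 replicate 2 or 3 or vehicle replicate 2, among 4 settings with values of -0.77 to -0.51.

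The epithelial cytoskeleton and junctions changed in 33 of 47 tested genes, 20 higher and 13 lower, with a median of 0.31. With library size alone 15 were higher and 15 lower, with a median of 0.07. The simple keratins rose strongly. KRT8 had 2373, 1929 and 2042 CPM with R1881, against 419.8, 525 and 428 CPM with vehicle, its partner KRT18 rose by 2.02, and KRT19, at a low level, by 2.84 ± 0.18. CDH1, E-cadherin, was not called (0.04), while CDH3, P-cadherin, fell to 0.0721, 0.292 and 0.271 CPM with R1881, against 0.861, 1.18 and 1.38 CPM with vehicle. CTNNA2, the neural alpha-catenin, had 9.01, 10.2 and 12.8 CPM with R1881, against 0.331, 0.139 and 0.642 CPM with vehicle, and ITGAV, an integrin of fibronectin and vitronectin, rose by 2.09. Of 34 neuronal and axon guidance genes 14 fell and 8 rose, 64.7% called. Over all genes tested 37.7% were called, 17.6% lower and 20.1% higher. SLITRK3, a synaptic adhesion protein, had 0.577, 0.438 and 0.452 CPM with R1881, against 21.9, 19.8 and 21.5 CPM with vehicle. LRRN1, a related leucine-rich protein, fell to 47.9, 68.5 and 63.9 CPM with R1881, against 419, 298 and 373 CPM with vehicle. VGF, a neuropeptide precursor, rose from a low level, with 9.16, 6.21 and 5.96 CPM with R1881 and 0.530, 1.32 and 1.47 CPM with vehicle. The groups stood apart in each of these.

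Long noncoding RNAs of the prostate changed in 14 of 19 tested, 9 higher and 5 lower. Over the whole list of 29 tested noncoding RNAs, 11 were higher and 5 lower, and with library size alone 9 were higher and 8 lower. ARLNC1, named for its regulation by androgen receptor, had 87 counts with R1881 and 3 with vehicle, a ratio of 30.4 with a counting interval of 10.1 to 150. PCAT14 (3.47), SOCS2-AS1 (3.58), LINC00844 (3.94) and PCA3, the urine marker of prostate cancer (2.22), rose. DRAIC (-1.26), TMPO-AS1 (-1.72) and PVT1 (-0.71) fell. DRAIC, described as repressed by androgen, had 9.73, 7.97 and 7.77 CPM with R1881 and 20.7, 21.6 and 18.9 CPM with vehicle. Of 10 nuclear or general noncoding RNAs NEAT1, the scaffold of paraspeckles (0.60), and LINC-PINT (1.47) rose and none fell (0 lower at an unadjusted p below 0.05 by edgeR, 0 called lower by DESeq2). MALAT1 was not called and ranged widely within groups, with 14542, 34576 and 33761 CPM with R1881 and 29083, 10830.0 and 20086 CPM with vehicle, lowest in the libraries that were low in AT-rich genes.

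The same treatment was given to cells with siRNA against UPF1, the helicase of nonsense-mediated decay, or against RCOR1, the CoREST scaffold. Of the 3090 genes that rose with control siRNA, 2292 rose with UPF1 siRNA, 74.2% of the control list and 69.0% of the UPF1 siRNA list, and 2084 rose with RCOR1 siRNA, 67.4% and 83.1%. Of the 2711 that fell, 1709 fell with UPF1 siRNA (63.0% and 55.4%) and 1756 with RCOR1 siRNA (64.8% and 76.7%). A test of the difference between the responses called 2.72% of genes for UPF1 siRNA and 0.767% for RCOR1 siRNA. Both differences use the same control libraries, and their counts moved with single ones. The count for UPF1 siRNA was 208, 231 and 628 without R1881 replicate 2, 3 and 1, and 230 and 274 without vehicle replicate 2 and 3. The count for RCOR1 siRNA was 52 without R1881 replicate 1, and 64 and 63 without vehicle replicate 1 and 3. Among genes called higher with control siRNA, the difference was called in 198 for UPF1 siRNA, with the UPF1 siRNA value the lower one in 164, and in 73 for RCOR1 siRNA, with the RCOR1 siRNA value the lower one in 71. Among genes called lower with control siRNA it was called in 143 for UPF1 siRNA, 132 of them with the higher value in that arm, and in 34 for RCOR1 siRNA, 30 of them with the higher value. These genes were chosen by their response with control siRNA, so the balance of directions is a description only. DUSP5 changed by 0.67 with UPF1 siRNA and 1.45 with RCOR1 siRNA, against 3.24 with control siRNA, differences of -2.56 ± 0.37 (adjusted p = 0.0014) and -1.79 ± 0.39 (adjusted p = 0.043). BIRC3, which rose with control siRNA, changed by -1.07 with UPF1 siRNA (difference -3.26 ± 0.61, adjusted p = 0.0097). KLK2 responded more with UPF1 siRNA (5.58) and less with RCOR1 siRNA (3.82) than with control siRNA (4.89), with differences of 0.69 ± 0.14 (adjusted p = 0.015) and -1.08 ± 0.14 (adjusted p = 0.00099).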

How the data were processed

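Total RNA (500 ng) was depleted of ribosomal RNA before sequencing, per the labels' protocols. The authors deposited 1 table of raw counts per gene for 18 libraries. Per the submitters' processing notes the tools were bcl2fastq 2.20, STAR 2.7.9a and featureCounts of Subread 1.6.4, with GRCh38.p7, while no source used here gives the annotation release or strand setting. Genes were matched by identifier to GENCODE 29 for positions (58381 of 60649).

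The tests used edgeR 4.0.16 under R 4.3.3 on the deposited counts (filterByExpr by group, TMM, glmQLFit and glmQLFTest on 6 groups of 3 libraries, 1 mean per group). A gene was called at a Benjamini-Hochberg adjusted p below 0.05. Fold changes are fitted log2 values and the SE was taken from F. Intervals of count ratios are exact and cover counting error only. The fit was tested on simulated counts with 1 spread for all genes and no GC-linked difference between libraries. That test does not bear on such differences. Nothing in the labels says that the 3 libraries of a group came from separate experiments, so p-values measure the spread between these libraries.

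Members and the 28 gene lists (901 genes tested, 210 too low, 2 unmatched) were chosen with earlier results of these data known. Named genes are the 15 highest and 15 lowest log2 fold changes among called genes of at least 50 CPM, the 8 largest gains and 8 largest losses in CPM, genes at 0 counts in 1 group and at least 10 counts in every library of the other, up to 3 called genes at each end of every list with the gene the list is about, the 5 largest F values in each direction at 10 CPM or more, and KLK3, TMPRSS2, FKBP5 and UGT2B17. Some genes that this rule picks are not reported here. Other genes named were chosen after their values were seen. Alternatives were RLE size factors, library size alone, no filter, a stricter filter, the 6 libraries alone, DESeq2 1.42.0, voom with sample weights in limma 3.58.1 and each library left out. A correction for GC content and leaving out both libraries low in AT-rich genes were added after seeing the data.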

Additional observations from a re-analysis of the deposited data

Results flagged for a closer look

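The response to R1881 differed from that of cells with another siRNA in some of the 190 named genes, by edgeR's test of the interaction. It was called in 37 of them for UPF1 siRNA and in 25 for RCOR1 siRNA, 8 genes being in both. Over all 15390 genes it was called in 2.72% for UPF1 siRNA and in 0.767% for RCOR1 siRNA, and most named genes were picked for a large response, so the counts are not read against these shares. The values in brackets are the log2 fold change of R1881 over vehicle with the targeting siRNA minus that with control siRNA. For the same reason the balance of directions is a description only, and the 2 differences share the control libraries.

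For UPF1 siRNA the difference ran against the direction of the control siRNA response in 34 of the 37 genes. Of genes that rose with control siRNA, the value was lower in TTN (-3.38), BIRC3 (-3.26), CDKN2B (-2.65), DUSP5 (-2.56), HES1 (-1.87), CSGALNACT1 (-1.61), ACTA2 (-1.50), NDRG1 (-1.48), PIAS1 (-1.45), ACSL3 (-1.29), UAP1 (-1.12), MICAL1 (-1.12), SAT1 (-0.86), SMS (-0.78), PTPRM (-0.71), GNMT (-0.66), AMACR (-0.65), ABHD2 (-0.65), BHLHE40 (-0.60), MPC2 (-0.56), CRY1 (-0.53), ODC1 (-0.50), FZD5 (-0.49) and TNFRSF10B (-0.41). It was higher in GLUD1 (0.43), KLK2 (0.69) and KRT14 (1.44). Of genes that fell with control siRNA, it was higher in FN1 (0.63), MT2A (0.70), DRAIC (0.71), DDC (0.84), DEPTOR (1.11), OPRK1 (1.12), IL1RN (1.32), DTX4 (1.52), SLITRK3 (2.28) and HOXA9 (3.83).

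For RCOR1 siRNA the difference ran against the direction of the control siRNA response in 23 of the 25 genes. Of genes that rose with control siRNA, the value was lower in SCNN1G (-1.85), DUSP5 (-1.79), HOXB9 (-1.28), KRT19 (-1.25), KLK2 (-1.08), BHLHE40 (-0.88), KLK3 (-0.85), TMPRSS2 (-0.82), PTPRM (-0.77), KCNMA1 (-0.69), SLC45A3 (-0.66), SAT1 (-0.60), MAF (-0.59), SMS (-0.55), ALDH1A3 (-0.50) and PMEPA1 (-0.45). It was higher in TRPM8 (0.96). Of genes that fell with control siRNA, it was higher in GRB10 (0.53), PIK3R3 (0.73), OPRK1 (0.85), ITPR1 (1.03), VWF (1.08), ACKR3 (1.49) and SLITRK3 (1.76). It was lower in ST3GAL1 (-0.63).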

How the results depend on the processing

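Against 5801 genes called for the R1881 response, 4971 to 5433 were called when 1 library was left out, 4235 with the 6 libraries alone, 7447 by limma-voom and 7542 after the GC-content correction. With library size alone 1690 genes were called higher and 4696 lower, with 26.5% of calls higher in place of 53.3%, and with the 6 libraries alone, where fewer libraries set the spread, 1989 were called higher. The counts of differences between arms were less stable. For UPF1 siRNA, against 419, there were 1320 with no filter on low counts, 638 by DESeq2, 4388 by limma-voom with sample weights, 3182 after the GC-content correction and 208 to 628 when 1 library was left out. For RCOR1 siRNA, against 118, there were 57 with library size alone, 635 by limma-voom, 906 after the GC-content correction and 52 to 125 when 1 library was left out. The cause of these shifts was not tested. Of 190 named genes called, 170 kept their direction and call in every setting that tested them. No paired analysis was possible because the labels number all 18 libraries in 1 run and give no number that groups share. Replicate numbers here follow accession order and only name the libraries.

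The data are those of 1 cell line, 1 dose and 1 time. Genes near the filter are limited by depth, since 10299607 counts in the shallowest library leave few reads for them. A TMM-scaled level is relative to the other genes, so a change in total RNA per cell cannot be seen. How reads were divided within close gene copies and antisense pairs was not tested.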

Other observations

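Changes differed by the kind and level of gene. Of 2140 tested long noncoding genes 8.74% rose and 16.8% fell, and of 12415 protein-coding genes 2821 rose and 2229 fell. Among the 1865 genes with a mean under 1 CPM, 8.53% rose and 15.1% fell, and among the 2407 genes of at least 100 CPM, 37.8% rose and 9.35% fell. Noncoding genes are mostly of low level, and the 2 divisions were not separated here. Among genes of 3 to 10 CPM 11.8% rose and 27.9% fell. The gene lists were not set against genes of like level. Of 511 genes that span 300 kb or more 96 rose and 148 fell. By chromosome the share of tested genes called ran from 27.1% on chromosome 19 to 43.2% on chromosome 4 among the autosomes. Of the 16 tested mitochondrial genes 8 rose and none fell (0 lower at an unadjusted p below 0.05 by edgeR, 0 called lower by DESeq2), by small amounts such as 0.29 ± 0.07 in MT-CO1. The call of MT-CO1 was lost without R1881 replicate 1 and with library size alone, among 3 settings with values of 0.05 to 0.24. As a share of all counts, mitochondrial genes held 4.36, 3.83 and 3.79% with R1881 and 3.52, 4.08 and 3.84% with vehicle. These shares overlapped, while the edgeR and DESeq2 calls rest on rescaled totals.

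Counting tested genes in the order of their starts, 80 runs of 3 or more neighbours changed by at least 2-fold in the same direction, 41 higher and 39 lower, and took in 296 genes. No share by chance was computed, and overlapping genes, antisense partners and family copies can share reads within a run. The longest held 14 histone genes on chromosome 6, all lower, by a median of -1.87. On chromosome 7 the T cell receptor gamma constant genes rose together with EPDR1, STARD3NL, TRGV9 and TRG-AS1. TRGC1 had 54.6, 65.0 and 65.4 CPM with R1881, against 4.77, 5.69 and 5.59 CPM with vehicle, while CD3E and PTPRC, which mark T cells, had 0 counts in all 6 libraries. On chromosome 15 B2M (1.16), the light chain of the class I antigen complex, rose in a run with SORD, its copy SORD2P, and DUOX1. On chromosome 3 SI, SLITRK3 and BCHE fell together over 2402 kb, by a median of -3.77, and on chromosome 16 IRX3 (-1.52), CRNDE (-1.09) and IRX5 (-1.87) fell. In the lipid exporter ABCA1 (-4.48) and its neighbours NIPSNAP3A, NIPSNAP3B and SLC44A1 on chromosome 9 the median fall was -2.50.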
